A study of Homo sapiens with 15 samples.

Results

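Lys05 was compared with vehicle in MIA PaCa-2 cells, with the emphasis on genes encoded in the nucleus. MIA PaCa-2 is an established human pancreatic carcinoma line and was used in every group. The comparison comprised every library labelled Lys05 (n = 3) and every library labelled Ctrl (n = 3), that is, 6 of the 15 RNA-seq libraries of the series. The Lys05 group received 5 µM for 24 h and the control group was given vehicle. The other libraries came from cells given BAQ12, BAQ13 or BAQ12O at the same dose and time, with 3 libraries each. They were used here only to compare 2 of these compounds with Lys05. The labels do not say whether replicates were separate cultures, so the spread between these libraries may be technical. Each SE and p-value for Lys05 against vehicle rests mostly on a spread that limma estimated over genes of similar level. A gene had 63.6 degrees of freedom in this fit, where its own 6 libraries give 4. Of 60070 nuclear genes listed, 19700 had at least 1 read in the 6 libraries and 9843 passed the filter on low counts and were tested.

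Lys05 is a dimeric chloroquine. As a weak base with a pair of aminoquinoline heads, it is protonated and trapped in the acidic lysosome, where it raises the pH and blocks the last step of autophagy. Lysosomes break down proteins, lipids and organelles and return amino acids, iron and LDL-derived cholesterol to the cytosol. When less cholesterol leaves the lysosome, the transcription factor SREBP2 is released to the nucleus and switches on sterol synthesis and uptake, while the related SREBP1 drives fatty acid synthesis. TFEB, held in the cytosol by mTORC1 at the lysosomal surface, switches on lysosomal and autophagy genes. Entry into S phase is driven by E2F factors, which switch on the genes for DNA replication.

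Of the DNA replication genes tested, 33 of 38 had a lower mean after Lys05, and 4 start sites of genes called lower are shown because they carry the letters bound by E2F and the genes act in replication or its checkpoint. Each stretch runs from 100 bases before to 30 bases after a RefSeq start site (GRCh38.p14), 5′ to 3′ on the strand of the gene. Capitals mark TTTCCCGC or TTTGGCGC, searched on both strands, so that GCGGGAAA is the first of these read on the other strand. The genes encode the replication clamp (PCNA), the factor that loads the replicative helicase (CDC6), an adaptor of the ubiquitin ligase that degrades the loading factor CDT1 (DTL) and a mediator of the replication checkpoint (CLSPN).
PCNA, chr20:5126593-5126722, strand -: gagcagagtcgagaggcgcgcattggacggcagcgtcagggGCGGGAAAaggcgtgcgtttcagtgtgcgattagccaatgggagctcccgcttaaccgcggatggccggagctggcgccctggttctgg
CDC6, chr17:40287779-40287908, strand +: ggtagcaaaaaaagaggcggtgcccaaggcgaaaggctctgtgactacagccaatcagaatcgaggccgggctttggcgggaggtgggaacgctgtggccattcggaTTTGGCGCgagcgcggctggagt
DTL, chr1:212035648-212035777, strand +: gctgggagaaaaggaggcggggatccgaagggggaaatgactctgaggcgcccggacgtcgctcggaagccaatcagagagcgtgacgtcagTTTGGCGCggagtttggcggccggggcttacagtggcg
CLSPN, chr1:35769949-35770078, strand -: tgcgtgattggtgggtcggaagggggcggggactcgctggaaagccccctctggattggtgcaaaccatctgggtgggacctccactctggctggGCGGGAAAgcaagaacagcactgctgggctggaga

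The letters began 59 bases before the start in PCNA, 8 before in DTL, 5 before in CLSPN and at base 8 of the transcript in CDC6. In windows of 300 bases (250 before and 50 after the start), they stood in 2.75% of 27305 genes with a RefSeq window. They stood in 16 of the 32 DNA replication genes that were tested and had a window (50%). The 27305 genes include genes not tested here, and the share among all tested genes was not computed. The 16 replication genes with the letters had log2 differences from -0.73 to -0.14 (median -0.31), and the 16 without them from -0.77 to 0.34 (median -0.20). Of the called members of this list, PCNA and CDC6 held the letters, MCM10, with the largest decrease, did not, and MCM4 had no window. DTL and CLSPN are not members of the list. Among the genes called lower, 5 of 27 with a window held the letters (18.5%), the fifth being SNRPB, a core splicing protein whose start site is not shown. Among those called higher 2 of 29 did (6.90%), STIM1 and BTG1. A match of letters is a description and not a bound site.

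Few nuclear genes passed the test between Lys05 and vehicle, and most of these differed by small amounts. By limma on log2(normalised count + 1), 45 of the 9843 nuclear genes were called higher (0.457%) and 43 lower (0.437%) at an adjusted p-value under 0.05, together 0.894%. Of these 88 genes, 8 match a mitochondrial gene at 75% identity or more over at least 50% of a transcript, and are termed copies here. Their identity ranged from 78.8% (MTRNR2L3) to 98.5% (MTATP6P1), and whether their reads are mitochondrial was not tested. Setting them aside left 42 higher and 38 lower. In these 80 genes, the log2 difference had a median size of 0.35 and ranged in size from 0.13 to 0.88, and 5 rose and 5 fell at least 1.5-fold. In all 88 genes the Lys05 and vehicle libraries did not overlap, where every Lys05 library lay above every vehicle library in 8.22% of all nuclear genes tested and below in 7.38%. The count depended on the libraries that estimate the spread: with all 15 libraries in the fit 2 genes were called higher and 4 lower, of which MCM10, SCD and GDF15 are not copies, and with 14, without BAQ12 replicate 3, 16 and 12. Of the 80 genes, 20 kept their call with 14 libraries. Most calls given below were thus lost in that fit, also where this is not said for the gene. Without vehicle replicate 2 the counts were 27 higher and 22 lower, and without vehicle replicate 3 they were 24 and 25.

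**Figure D1:**
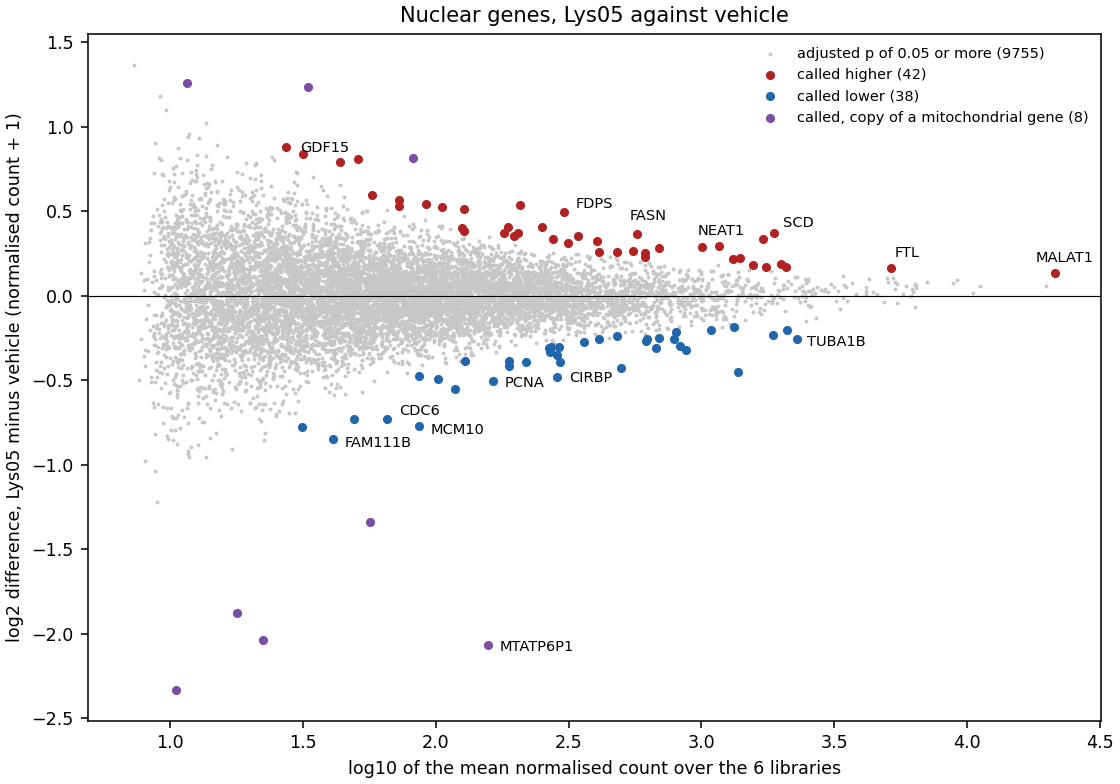
Each point is 1 of 9843 nuclear genes; the horizontal axis is the log10 of the mean normalised count over the 6 libraries and the vertical axis the log2 difference between Lys05 and vehicle. The 42 genes called higher (red) and the 38 called lower (blue) lie within 0.88 of 0, and the points beyond -1.3 are copies of mitochondrial genes (purple).

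By limma, 13 nuclear genes (0.132%) passed the study's thresholds of a 2-fold change and an unadjusted p-value of 0.05, 6 higher and 7 lower. Of these, 7 were copies of mitochondrial genes. The other 6 had means under 14 normalised counts and adjusted p-values of 0.11 or more, namely FAM213A, LINC00346, STK19 and TPPP (higher) and LSR and C5orf34 (lower). They were named after their values were seen. This count covers genes past the filter on low counts, and 370 nuclear genes passed with no filter. The study instead used a t test on more genes, and reported more of them past these thresholds for Lys05 against vehicle. The mitochondrial genes themselves took 17.7 ± 0.37% (SD, n = 3) of the reads with vehicle and 17.2 ± 0.27% (SD, n = 3) with Lys05, and 26 of 31 tested were called.

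The reads counted on genes numbered between 1864594 and 2500551 with vehicle and between 1948633 and 2230594 with Lys05. A floor of 3 reads corresponded to 2.49 to 3.35 normalised counts, and covers counting error only. The cells were checked against markers of the labelled epithelial type. KRT8, KRT18 and KRT19 were present, whereas EPCAM had 0 reads and CDH1 at most 1 read in every library. The summed level of the 5 epithelial markers was 1715 to 1795 normalised counts with vehicle and 1388 to 1574 with Lys05. Among the markers of other cells, VIM was abundant and COL1A2, COL3A1, CDH5 and ZEB1 were above the floor. CD14 had at most 4 reads in any library, and FN1, COL1A1, PTPRC, CEL and CHGA had at most 3. The mesenchymal marker CDH2 had 0 reads, as did DCN, LUM, PECAM1, VWF, CD3E, MS4A1, PRSS1, CPA1, PNLIP, INS and GCG.

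Genes of DNA replication were lower after Lys05, of which 4 passed the test. In a list of 38 tested members, 33 had a lower mean with Lys05, against 49.5% of all nuclear genes, and 4 were called lower and none higher. The list median was -0.27 on the log2 scale, where the median of all genes tested was 0.0019. In 20 of the 38 genes every Lys05 library lay below every vehicle library, against 7.38% of all genes, and in none did every one lie above. At an unadjusted p-value under 0.05, 18 of the 38 were lower, where 5.11% of all genes were. By library, the list median relative to the vehicle mean was -0.21, -0.31 and -0.28 for Lys05 replicates 1 to 3. Leaving out any of the 6 libraries kept it between -0.27 and -0.26. The list was compiled with earlier results of these data known, and the list as a whole was not tested.

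MCM10 (ENSG00000065328, chr10:13161554-13211104), which helps to activate the replicative helicase, had normalised counts of 113, 104 and 110.2 with vehicle and 71.3, 63.5 and 56.0 with Lys05. All 3 Lys05 libraries lay far below the vehicle libraries (log2 difference -0.77 ± 0.13 (SE), adjusted p = 2.6e-05). CDC6 (ENSG00000094804, chr17:40287633-40304657) had 82.2, 74.8 and 90.0 with vehicle and 56.4, 47.9 and 43.9 with Lys05 (log2 difference -0.73 ± 0.15 (SE), adjusted p = 0.0010). PCNA (ENSG00000132646, chr20:5114953-5126626), the sliding clamp that holds the polymerases on DNA, had 180.2, 197 and 200.1 with vehicle and 133, 147 and 126 with Lys05 (log2 difference -0.50 ± 0.10 (SE), adjusted p = 0.00040). The groups were apart in both genes. MCM4 (ENSG00000104738, chr8:47960185-47978160), a subunit of the helicase itself, had 315, 325 and 327 with vehicle and 247, 254 and 255 with Lys05 (log2 difference -0.35 ± 0.08 (SE), adjusted p = 0.0028). These 4 calls held when any of the 6 libraries was left out (adjusted p up to 0.042). With 14 libraries in the fit the calls of CDC6 and MCM4 were lost, and MCM10 was also called with all 15.

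**Figure D2:**
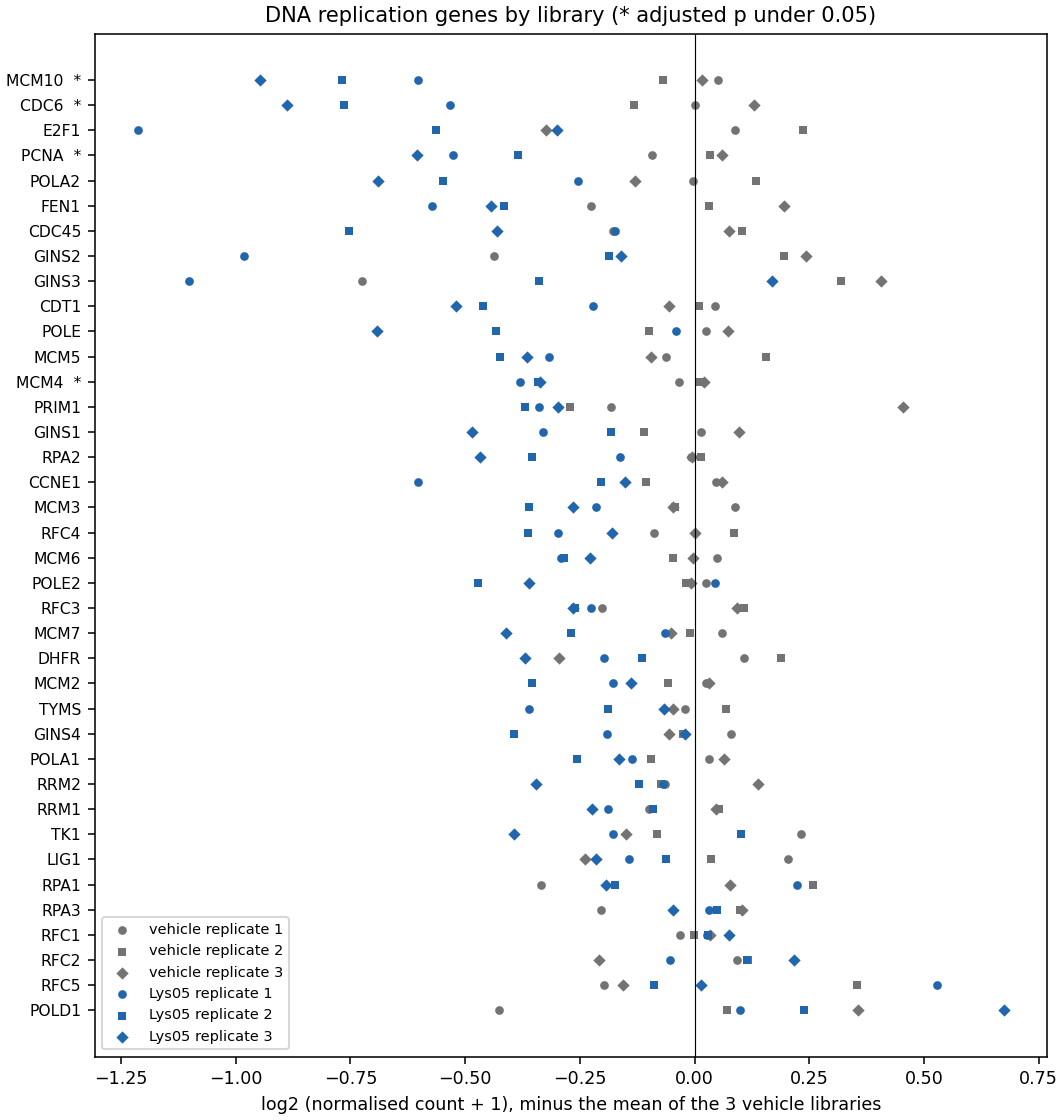
Each row is 1 of 38 DNA replication genes and each symbol 1 library, placed at its log2(normalised count + 1) minus the mean of the 3 vehicle libraries (grey vehicle, blue Lys05). The Lys05 symbols lie mostly left of 0, and the genes called lower (*) are MCM10, CDC6, PCNA and MCM4.

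Most other members of the helicase, its loader and the polymerases had a lower mean and did not pass the test singly. The loading factor CDT1 had a log2 difference of -0.40 ± 0.14, adjusted p = 0.17, the clamp loader subunit RFC3 -0.25 ± 0.07, adjusted p = 0.053 and the transcription factor E2F1 -0.69 ± 0.23, adjusted p = 0.14. RFC3 was called by edgeR and under some other settings, and E2F1 when Lys05 replicate 3 was left out. The 5 members with a higher mean were RFC1, RFC2, RFC5, RPA3 and POLD1, with log2 differences from 0.01 to 0.34, none called.

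The following genes were among the largest decreases outside the list, copies of mitochondrial genes left aside, and were grouped here after their values were seen. FAM111B, a protease gene expressed in S phase, had 57.3, 40.2 and 61.5 with vehicle and 27.7, 22.9 and 36.4 with Lys05 (log2 difference -0.85 ± 0.19 (SE), adjusted p = 0.0061). This call was lost without vehicle replicate 1 or 3 or without Lys05 replicate 2 (adjusted p up to 0.15). DTL (ENSG00000143476, chr1:212035553-212107400) had 125, 149 and 149.6 with vehicle and 89.4, 98.9 and 98.9 with Lys05 (log2 difference -0.55 ± 0.11 (SE), adjusted p = 0.0010), and this call held without any 1 library. CLSPN had 121, 88.2 and 95.5 with vehicle and 72.4, 73.9 and 70.0 with Lys05 (log2 difference -0.48 ± 0.13 (SE), adjusted p = 0.042). ESCO2, which acetylates cohesin during replication, fell by 0.78 on the log2 scale (adjusted p = 0.044). BRCA2, a gene of homologous recombination, fell by 0.49 (adjusted p = 0.020), and RNASEH2C, a subunit of the enzyme that removes ribonucleotides from DNA, by 0.73 (adjusted p = 0.0086). The calls of CLSPN and ESCO2 were lost in 5 of the 6 fits without 1 library, with adjusted p up to 0.30 and 0.36. Those of BRCA2 and RNASEH2C were lost in 3, with adjusted p up to 0.27 without vehicle replicate 1 or 2 or Lys05 replicate 2, and 0.12 without vehicle replicate 2 or 3 or Lys05 replicate 2.

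Genes of mitosis had no such decrease. Of 30 tested, 21 had a higher mean with Lys05 and none was called, and the list median was 0.05. A lower mean was found in 49.5% of all nuclear genes. TOP2A, the member with the highest mean count, which untangles chromosomes, had 4959.8, 4740.0 and 4688 with vehicle and 5039.6, 5105 and 5322 with Lys05 (log2 difference 0.10 ± 0.04 (SE), adjusted p = 0.19). CENPF, a kinetochore protein, had a log2 difference of 0.14 ± 0.04, adjusted p = 0.10. In 9 of the 30 genes every Lys05 library lay above every vehicle library, against 8.22% of all genes, and 8 of the 30 were higher at an unadjusted p-value under 0.05, where 5.96% of all genes were. In bulk RNA fewer cells in a phase and less RNA per cell cannot be told apart.

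3 genes of lipid synthesis rose. Among 12 fatty acid synthesis genes tested, 10 had a higher mean with Lys05 and 2 were called higher, with a list median of 0.16. Among 20 cholesterol synthesis genes, 15 had a higher mean and 1 was called higher, with a median of 0.12. No gene of either list was called lower, and the percentage of all nuclear genes called higher was 0.457%. A lower mean was found in 49.5% of all nuclear genes. The medians stayed between 0.11 and 0.17 when any 1 library was dropped.

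SCD (ENSG00000099194, chr10:100347124-100364834), the desaturase that makes oleate, had normalised counts of 1646, 1620.2 and 1620.2 with vehicle and 2075, 2200.5 and 2042 with Lys05 (log2 difference 0.37 ± 0.04 (SE), adjusted p = 3.8e-09). The 3 Lys05 libraries lay about 400 counts or more above every vehicle library. FASN (ENSG00000169710, chr17:82078333-82098332), the fatty acid synthase, had 496, 495 and 506 with vehicle and 626, 624 and 684 with Lys05 (log2 difference 0.37 ± 0.06 (SE), adjusted p = 2.6e-05). FDPS (ENSG00000160752, chr1:155308748-155320666), which makes farnesyl diphosphate in the sterol pathway, had 263, 240.1 and 253 with vehicle and 369, 326 and 373 with Lys05 (log2 difference 0.50 ± 0.08 (SE), adjusted p = 4.9e-06). The 3 calls held when any of the 6 libraries was left out (adjusted p up to 0.00067), with 14 libraries, by edgeR and by DESeq2. SCD was also called with all 15 libraries, and FASN and FDPS were not.

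**Figure D3:**
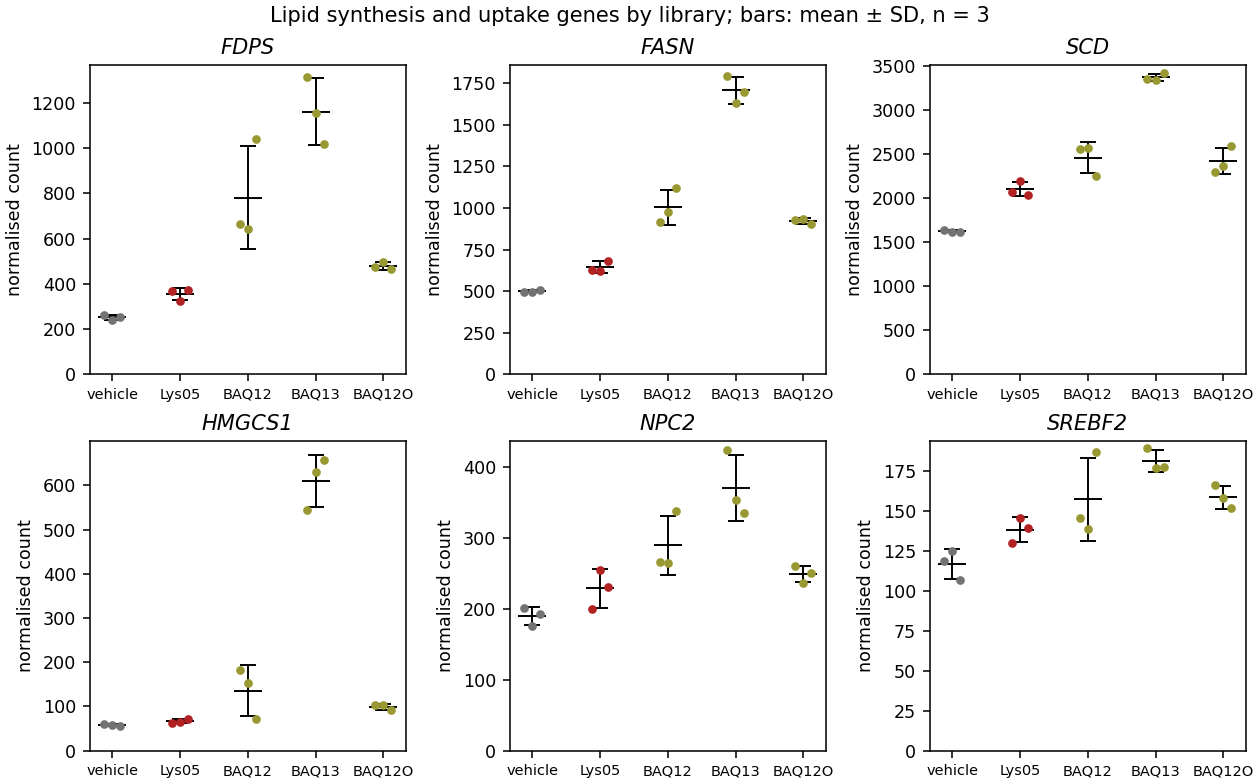
Normalised counts of 6 lipid genes in each of the 15 libraries, by group (points; bars are the mean ± SD of n = 3). In FDPS, FASN and SCD the Lys05 libraries (red) lie above vehicle (grey) and below all BAQ13 libraries.

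The rest of the sterol pathway had smaller differences that did not pass the test. FDFT1 makes squalene, SQLE oxidises it and EBP acts on a later sterol. EBP, SQLE and FDFT1, named after their values were seen, had log2 differences of 0.20, 0.21 and 0.17, with adjusted p-values of 0.35, 0.39 and 0.42. In 5 of the 20 cholesterol synthesis genes, these 3 among them, every Lys05 library lay above every vehicle library, against 8.22% of all genes. Of 12 genes of SREBP control and LDL uptake none was called, and their median was 0.12. NPC2, which hands cholesterol out of the lysosome, had 201, 175 and 193 with vehicle and 200.2, 255 and 231 with Lys05 (log2 difference 0.26 ± 0.09 (SE), adjusted p = 0.17). SREBF2, which encodes SREBP2, had a log2 difference of 0.24 ± 0.11, adjusted p = 0.34, and the lysosomal lipase LIPA 0.00 ± 0.06, adjusted p = 0.99. Of 5 liver X receptor targets none was called, and LPCAT3, which remodels phospholipids, had -0.25 ± 0.14, adjusted p = 0.49. The letters of a sterol element, TCACNCCAC on either strand, stood in 1.39% of the 27305 genes with a window, tested or not. They stood in 1 of 37 lipid genes, in 0 of 29 genes called higher and in 1 of 27 called lower (3.70%, SRSF6).

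Lysosomal genes were not called in either direction. None of 17 V-ATPase genes, 18 genes of lysosomal membrane proteins and channels, 15 cathepsins and cystatins and 31 hydrolases passed the test, and their medians were 0.07, 0.08, 0.06 and 0.03. Most members had a higher mean with Lys05, 12 of 17, 12 of 18, 12 of 15 and 20 of 31, where 49.5% of all nuclear genes had a lower mean. In simulated libraries of this depth, limma recovered 54.2% of 1.5-fold changes and 84.7% of 2-fold changes, with 8 false calls among 143. The recovery of 1.5-fold changes was 97.4% above the median expression and 25.9% below it.

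LAMP1, a major glycoprotein of the lysosomal membrane, had normalised counts of 187, 164 and 163 with vehicle and 203, 199 and 212 with Lys05 (log2 difference 0.26 ± 0.09 (SE), adjusted p = 0.19). Its partner LAMP2 had 266, 278 and 267 and 309.9, 319.7 and 291 (log2 difference 0.18 ± 0.08 (SE), adjusted p = 0.31). In both genes the groups did not overlap, yet neither passed the adjusted test. NEU1, the lysosomal sialidase, had 36.5, 22.3 and 31.2 and 43.7, 41.7 and 39.2 (log2 difference 0.48 ± 0.20 (SE), adjusted p = 0.30). SLC17A5, which exports the sialic acid, had a log2 difference of 0.40 ± 0.13, adjusted p = 0.14. Among the subunits of the proton pump, ATP6V0D1 had 0.54 ± 0.23, adjusted p = 0.32 and ATP6V1G1, with the highest mean count, -0.01 ± 0.07, adjusted p = 0.99. Among the enzymes, CTSC and PRCP had 0.04 and -0.26, PSAP, the precursor of the saposins, 0.10 and the membrane protein LAPTM4A -0.02, with adjusted p-values from 0.24 to 0.92.

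No autophagy gene was called either. Of 38 core genes, 29 had a higher mean and none was called, with a median of 0.09, where 49.5% of all nuclear genes had a lower mean. The smallest p-value and the highest mean count belonged to RB1CC1, the scaffold of the kinase complex that starts autophagy, with 523, 535 and 578 with vehicle and 627, 643 and 609.6 with Lys05 (log2 difference 0.20 ± 0.06 (SE), adjusted p = 0.095). Of 16 receptors and ATG8 family genes, 12 had a higher mean, none was called and the median was 0.10. OPTN, a receptor for mitochondria and bacteria, had a log2 difference of 0.30 ± 0.09, adjusted p = 0.11, SQSTM1, which encodes p62, 0.19 ± 0.07, adjusted p = 0.28, and TAX1BP1 0.05 ± 0.06, adjusted p = 0.82. Of 19 genes of lysosome damage and ESCRT repair none was called. TRIM16, a ligase recruited to damaged lysosomes, had 0.65 ± 0.24, adjusted p = 0.21 and the galectin gene LGALS1 0.01 ± 0.06, adjusted p = 0.98.

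Among 21 genes of the TFEB family and the mTORC1 machinery on the lysosome, 1 was called higher and none lower. Of all nuclear genes, 0.457% were called higher. TSC1, part of the complex that restrains mTORC1, had 106, 109 and 116 with vehicle and 136, 149 and 148 with Lys05 (log2 difference 0.38 ± 0.11 (SE), adjusted p = 0.045). The call was lost whichever of the 6 libraries was left out (adjusted p up to 0.16). FLCN, which acts on the Rag GTPases that recruit mTORC1, had 0.47 ± 0.14, adjusted p = 0.077.

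Single genes of the stress responses were called, where 0.894% of all nuclear genes were called in either direction. GDF15 (ENSG00000130513, chr19:18374731-18389176), a secreted stress cytokine, had normalised counts of 42.3, 30.1 and 38.6 with vehicle and 57.5, 68.7 and 69.1 with Lys05 (log2 difference 0.81 ± 0.17 (SE), adjusted p = 0.0017). It rose 1.75-fold, the call held when any of the 6 libraries was left out (adjusted p up to 0.039), and it held with 15 libraries. GDF15 stands in the lists of the integrated stress response (28 tested, median -0.02) and of mitochondrial stress and dynamics (19 tested, median 0.05). PSAT1, an enzyme of serine synthesis and a target of ATF4, fell, with 281, 298 and 316 with vehicle and 277, 241 and 211 with Lys05 (log2 difference -0.30 ± 0.08 (SE), adjusted p = 0.045). This call was lost without vehicle replicate 2 or 3 or without Lys05 replicate 2 or 3 (adjusted p up to 0.30). The 2 genes called in the integrated stress response list thus moved in opposite directions, and 13 of its 28 members had a higher mean.

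HSP90B1, a chaperone of the endoplasmic reticulum, rose from 1430.5, 1554 and 1418 to 1695, 1682 and 1617 (log2 difference 0.18 ± 0.05 (SE), adjusted p = 0.026), the only call among 22 genes of its list. It was lost without vehicle replicate 1 or 3 or without Lys05 replicate 1 or 2 (adjusted p up to 0.25). FTL (ENSG00000087086, chr19:48965301-48966878), the light chain of the iron store ferritin, had 4894, 4929 and 4799.9 with vehicle and 5412, 5419 and 5529 with Lys05 (log2 difference 0.16 ± 0.04 (SE), adjusted p = 0.0044), the only call among 16 genes of iron uptake and storage. The call of FTL was lost without vehicle replicate 3 (adjusted p up to 0.099) and with 14 libraries in the fit (adjusted p = 0.60). Of all nuclear genes, 0.457% were called higher. FTL has many pseudogenes, and how the counting treated reads shared with them is not given in the sources used here.

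LDHA, which converts pyruvate to lactate, fell from 1937, 1978 and 2131 to 1677, 1735 and 1737 (log2 difference -0.23 ± 0.05 (SE), adjusted p = 0.00068) and was the only call among 17 glycolytic genes. It was lost without vehicle replicate 3 (adjusted p up to 0.084) and with 14 libraries in the fit (adjusted p = 0.22). Of all nuclear genes, 0.437% were called lower and 49.5% had a lower mean. NDUFC2, a subunit of complex I, fell from 271, 307 and 306 to 242, 242 and 229 (log2 difference -0.31 ± 0.08 (SE), adjusted p = 0.026), the only call among 64 nuclear-encoded genes of the respiratory chain, of which 43 had a lower mean (median -0.06). It was lost without vehicle replicate 2 or 3 or without Lys05 replicate 1, 2 or 3 (adjusted p up to 0.21). None of 76 mitochondrial ribosomal proteins and none of 26 genes of mitochondrial RNA transcription and processing was called, with medians of -0.05 and -0.10. MRPS7 and MRPS35 of the first had log2 differences of 0.23 and -0.07, and FASTKD5 and SSBP1 of the second -0.27 and -0.09. Of 32 proteasome genes, 25 had a lower mean and none was called (median -0.08), with PSMD12 at -0.26 ± 0.08, adjusted p = 0.11 and PSMD1 at -0.14 ± 0.05, adjusted p = 0.20.

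The proapoptotic genes that the study names for its BAQ treatments, and not for Lys05, were not called between Lys05 and vehicle. BAX, which opens the outer mitochondrial membrane, had 64.8, 65.9 and 67.9 with vehicle and 53.2, 77.1 and 62.5 with Lys05 (log2 difference -0.06 ± 0.15 (SE), adjusted p = 0.93). BBC3, which encodes PUMA, had 478, 564 and 559.9 and 606, 619.6 and 535 (log2 difference 0.14 ± 0.07 (SE), adjusted p = 0.41). The groups overlapped in both genes. BAK1, BAD and BCL2L11, which encodes BIM, had log2 differences of -0.02, 0.06 and -0.07, with SE of 0.18, 0.27 and 0.19. None of 12 genes of the BCL2 family was called, including BOK at 0.63 ± 0.19, adjusted p = 0.11 and the survival factor MCL1 at 0.03 ± 0.06, adjusted p = 0.90. None of 18 p53-responsive genes was called either, with C12orf5, also known as TIGAR, at -0.43 and PLK2 at 0.05.

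Of the remaining lists none held a called gene. Among 23 genes of oxidative stress defence the cystine transporter SLC7A11 had -0.64 ± 0.24, adjusted p = 0.24 and TKT 0.10 ± 0.04, adjusted p = 0.26. Among 17 heat shock genes DNAJA1 had -0.22 and HSP90AA1 0.06, and among 13 genes of metallothioneins and zinc transport MT1E had -0.11 and MT2A -0.03. Among 21 targets of the hypoxia-inducible factor ANKZF1 had 0.35 ± 0.10, adjusted p = 0.062, and HIF1A itself -0.04. Among 21 immediate early genes PHLDA1 had 0.13, and among 12 genes of inflammatory signalling CXCL8 had 0.30 and NFKBIA 0.07.

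**Figure D4:**
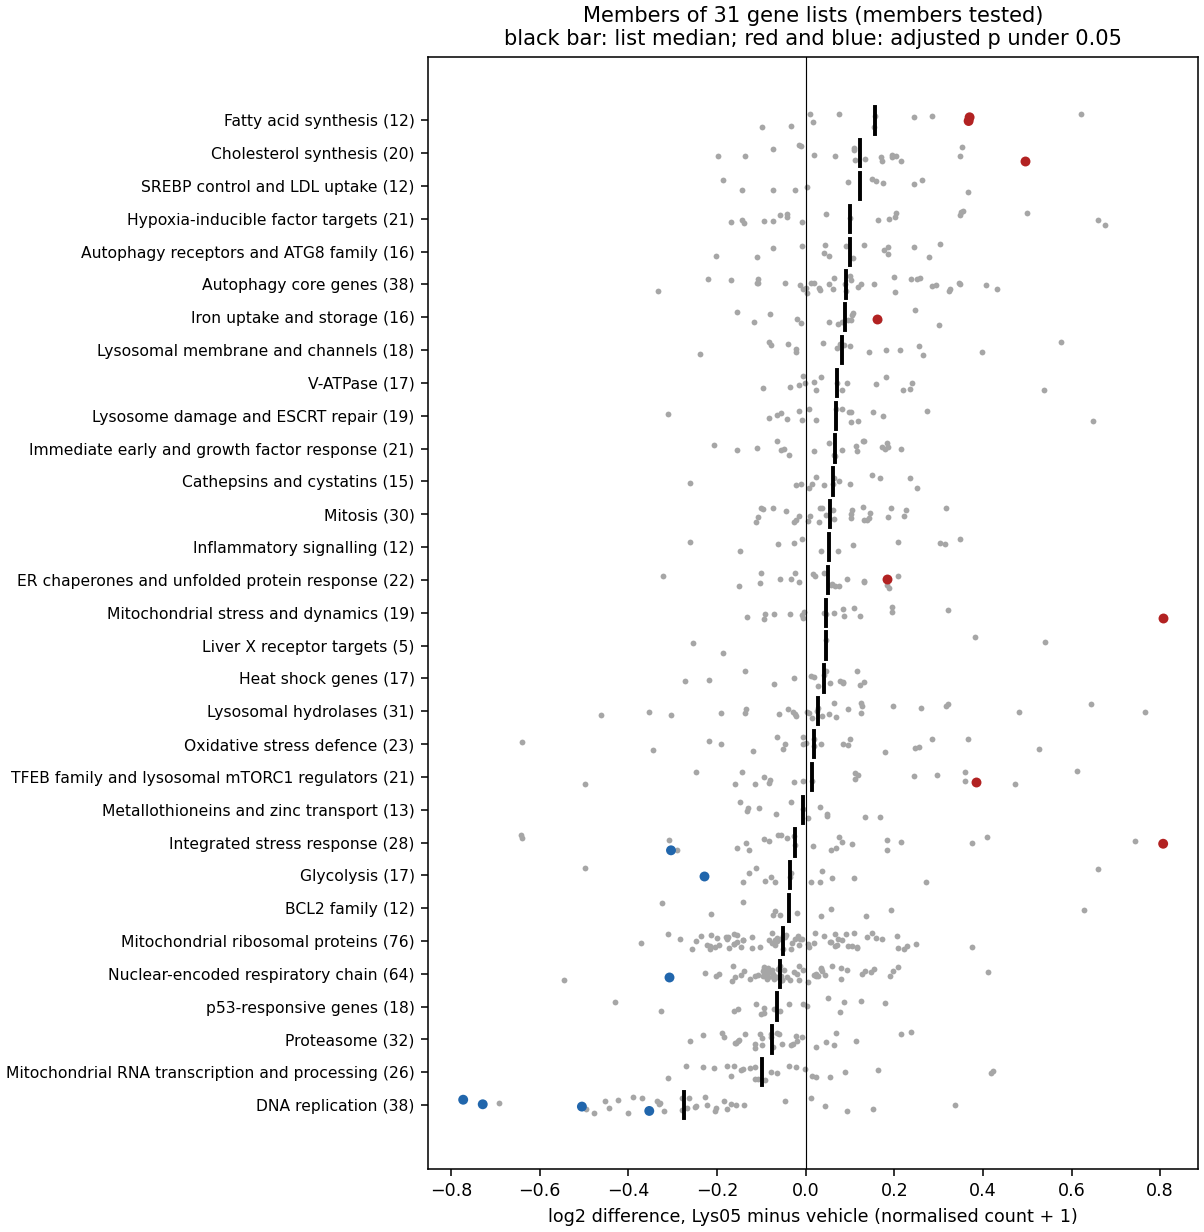
Each point is a tested member of 1 of 31 gene lists, at its log2 difference between Lys05 and vehicle; the black bar is the list median, and the number of members tested stands in brackets. DNA replication has the lowest median (-0.27), fatty acid synthesis the highest (0.16), and the called members are coloured red (higher) or blue (lower).

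The largest increases outside the lists, copies of mitochondrial genes left aside, were in genes with few reads. PBX3, a homeodomain transcription factor, had 20.8, 11.2 and 27.5 with vehicle and 37.3, 34.4 and 33.6 with Lys05 (log2 difference 0.88 ± 0.24 (SE), adjusted p = 0.045). L3MBTL1, which binds methylated histones, had 29.9, 20.1 and 18.4 and 38.3, 42.7 and 41.1 (log2 difference 0.84 ± 0.21 (SE), adjusted p = 0.021). Both lie close to the threshold, and the calls were lost without vehicle replicate 2 and in 3 further fits each (adjusted p up to 0.43 and 0.19). UAP1L1, a relative of a nucleotide sugar enzyme, had 25.7, 33.5 and 35.8 and 55.4, 44.8 and 67.2 (log2 difference 0.79 ± 0.18 (SE), adjusted p = 0.0077), lost without vehicle replicate 1 or without Lys05 replicate 3 (adjusted p up to 0.12). ARHGEF3, an activator of small GTPases, had 58.9, 38.0 and 41.3 and 72.4, 66.7 and 68.1 (log2 difference 0.60 ± 0.16 (SE), adjusted p = 0.036), lost in 5 of the 6 fits (adjusted p up to 0.27).

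Among better measured genes, YY1AP1, a partner of the transcription factor YY1, had 175, 156 and 178 with vehicle and 253, 232 and 255 with Lys05 (log2 difference 0.54 ± 0.09 (SE), adjusted p = 1.7e-05). PGPEP1, a peptidase that removes pyroglutamate, had 106, 107 and 101 and 148, 153 and 148 (log2 difference 0.51 ± 0.10 (SE), adjusted p = 0.0014). Both calls held when any of the 6 libraries was left out. STIM1, the calcium sensor of the endoplasmic reticulum, rose by 0.53 on the log2 scale (adjusted p = 0.031), the zinc finger gene ZC3H6 by 0.54 (adjusted p = 0.0054) and DBP, a transcription factor of the circadian output, by 0.56 (adjusted p = 0.013). These 3 calls depended on single libraries, ZC3H6 without Lys05 replicate 2 (adjusted p = 0.074), STIM1 without vehicle replicate 2 or 3 or Lys05 replicate 1 (up to 0.24) and DBP without vehicle replicate 1 or 2 or Lys05 replicate 1 (up to 0.096). CIRBP (ENSG00000099622, chr19:1259384-1274880), the cold-inducible RNA-binding protein, fell from 330.4, 354 and 317 to 219, 234 and 266 (log2 difference -0.48 ± 0.08 (SE), adjusted p = 2.6e-05), and the groups lay clearly apart in every fit without 1 library.

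The 5 largest decreases among the nuclear genes tested were in copies of mitochondrial genes. MTATP6P1, on chromosome 1 and 98.5% identical to MT-ATP6 over its whole length, had 282, 252 and 228 with vehicle and 62.8, 57.3 and 58.8 with Lys05 (log2 difference -2.07 ± 0.11 (SE), adjusted p = 2.6e-25). MTATP8P1, MTND4P12, RP11-475J5.10 and MTND2P28 fell by 2.33, 2.04, 1.88 and 1.34 on the log2 scale. MTRNR2L7, MTRNR2L3 and RP11-1113L8.7, which resemble MT-RNR2 or MT-TL1 at 79.2%, 78.8% and 93.3% identity, rose by 1.26, 0.81 and 1.23. The call of MTRNR2L7 was lost in fits without 1 library (adjusted p up to 0.29). Whether their reads are mitochondrial was not tested.

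Several families were looked at after their values were seen, and are described without a test of the family. Of 11 SR splicing factors tested, 9 had a lower mean and 3 were called lower, where 49.5% of all nuclear genes had a lower mean and 0.437% were called lower. SRSF2 (ENSG00000161547, chr17:76734115-76737374) fell from 582, 557 and 576 to 409, 449.9 and 416 (log2 difference -0.43 ± 0.06 (SE), adjusted p = 1.9e-06), and the call held without any 1 library. SRSF3 and SRSF6 fell by 0.26 and 0.33, and each call was lost in 3 of the 6 fits without 1 library (adjusted p up to 0.11 and 0.20). SRSF4 had a log2 difference of 0.21 (adjusted p = 0.20). Outside the family, SFPQ and HNRNPM, which bind RNA and were picked from the called genes, had log2 differences of -0.27 ± 0.06, adjusted p = 0.0045 and -0.26 ± 0.06, adjusted p = 0.010. SFPQ was lost without vehicle replicate 2 (adjusted p = 0.075) and HNRNPM without vehicle replicate 2 or 3 or without Lys05 replicate 1 (adjusted p up to 0.17).

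All 10 tubulin genes tested had a lower mean with Lys05 and 3 were called lower, against 49.5% and 0.437% of all nuclear genes. TUBA1B fell from 2451, 2461 and 2539.9 to 2176, 1995 and 2081 (log2 difference -0.25 ± 0.04 (SE), adjusted p = 3.5e-05), TUBB2A by 0.39 and TUBA1C by 0.18 on the log2 scale. The call of TUBA1B held without any 1 library and was lost with 14 libraries in the fit, that of TUBB2A was lost without Lys05 replicate 1 (adjusted p up to 0.085) and that of TUBA1C without vehicle replicate 2 or 3 or without Lys05 replicate 2 or 3 (adjusted p up to 0.26). Tubulin genes are close paralogs, so that reads may be split among them. All 5 keratin genes tested had a lower mean and 2 were called lower, against the same shares of all genes. Both calls held without any 1 library, and that of KRT18 was lost with 14 libraries in the fit. KRT8 fell from 315, 349.5 and 330.5 to 248, 267 and 245 (log2 difference -0.39 ± 0.08 (SE), adjusted p = 0.00069) and KRT18 from 969.7, 887 and 892 to 719.8, 691 and 826 (log2 difference -0.30 ± 0.06 (SE), adjusted p = 0.00057). These partners in the filaments of simple epithelia overlap on opposite strands of chromosome 12, and whether the counting used strand is not given in the sources used here.

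SAT1 and SAT2 were the 2 genes called higher among 13 of polyamine metabolism, where 0.457% of all nuclear genes were. SAT1, which acetylates spermidine and spermine for export, rose from 163, 147 and 173 to 223, 195 and 224 (log2 difference 0.41 ± 0.09 (SE), adjusted p = 0.0054), and SAT2, a related acetyltransferase, from 89.7, 84.9 and 82.6 to 106, 126 and 142 (log2 difference 0.53 ± 0.12 (SE), adjusted p = 0.0050). The call of SAT1 was lost without vehicle replicate 2 or without Lys05 replicate 1 (adjusted p up to 0.11) and that of SAT2 without vehicle replicate 3 or without Lys05 replicate 3 (adjusted p up to 0.083). Of 12 core clock genes DBP was the only call, and PER3 had 0.45 ± 0.12, adjusted p = 0.051.

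Among RNAs that encode no protein, NEAT1, the scaffold of paraspeckles, rose from 1597, 1509 and 1431 to 1919.8, 1877 and 1930.4 (log2 difference 0.34 ± 0.05 (SE), adjusted p = 1.9e-07). UCA1 rose from 238, 199 and 211 to 302, 284 and 271 (log2 difference 0.40 ± 0.08 (SE), adjusted p = 0.0013), and MALAT1 by 0.13 (adjusted p = 0.0056). RNU4ATAC, an RNA of the minor spliceosome, fell from 1447, 1768 and 1536 to 1214, 1136 and 1109 (log2 difference -0.45 ± 0.05 (SE), adjusted p = 1.2e-09). The calls of NEAT1, UCA1 and RNU4ATAC held without any 1 library, that of RNU4ATAC was lost with 14 libraries, and that of MALAT1 was lost without vehicle replicate 3 or without Lys05 replicate 2 (adjusted p up to 0.15). HIST1H4C, a histone H4 gene of the replication-dependent cluster, fell from 976, 963 and 967 to 756, 749.8 and 822 (log2 difference -0.32 ± 0.05 (SE), adjusted p = 3.5e-05), held without any 1 library but lost with 14 libraries, and shares its coding sequence closely with other H4 genes. The labels name a 3′ mRNA kit. What the reads counted on RNU4ATAC, a small nuclear RNA, and on HIST1H4C come from was not tested. UGCG, which makes glucosylceramide, fell by 0.39 (adjusted p = 0.0091), lost without vehicle replicate 2 or 3 or without Lys05 replicate 3 (adjusted p up to 0.14).

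The remaining called genes had log2 differences between -0.42 (DANCR, a noncoding RNA that hosts small nucleolar RNAs) and 0.40 (AGPAT9, an acyltransferase of triglyceride synthesis). BTG1, GOLGA4, SHOX2 and ANKRD12 were among those whose calls held without any 1 library, although ANKRD12 was lost with 14 libraries. BTG1, which restrains proliferation, rose from 301, 305 and 295 to 392, 374 and 386 (log2 difference 0.35 ± 0.07 (SE), adjusted p = 0.0010), and GOLGA4, a tether of the Golgi, from 897, 952 and 871 to 1046, 1189 and 1087 (log2 difference 0.29 ± 0.05 (SE), adjusted p = 0.00029). The calls of DANCR and AGPAT9 were lost without vehicle replicate 2 or without Lys05 replicate 1 (adjusted p up to 0.18) and without vehicle replicate 1 or 3 or without Lys05 replicate 1, 2 or 3 (adjusted p up to 0.20).

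BAQ13 and BAQ12O were each compared directly with Lys05 at 5 µM and 24 h, 2 pairs in all, to ask which of these genes respond differently to the related compounds. In the study's 24 h viability assay of MIA PaCa-2 cells, BAQ13 inhibited the cells at a lower dose than Lys05. An equal dose of 5 µM is therefore not an equal effective dose. Whether the differences below follow from this was not tested. BAQ13 is a hybrid of the bisaminoquinoline head of Lys05 with a lipophilic tail and assembles into nanoparticles, and BAQ12O is known here only by its label. Between BAQ13 and Lys05, 250 nuclear genes were higher with BAQ13 (2.52% of 9918) and 126 lower (1.27%). Between BAQ12O and Lys05, 101 were higher with BAQ12O (1.04% of 9676) and 100 lower (1.03%). P-values were adjusted over the genes of each pair. These counts moved with single libraries, to between 127 and 782 for the first pair and between 57 and 201 for the second. The lowest counts came without Lys05 replicate 2 (127) and without Lys05 replicate 1 (57), and the highest of the first pair without BAQ13 replicate 3 (782).

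Sterol synthesis genes were higher with BAQ13 than with Lys05. Of 20 cholesterol synthesis genes, 18 were called higher with BAQ13 than with Lys05 and none lower, with a median log2 difference of 1.61. FDPS reached 1161 ± 148 normalised counts (SD, n = 3) with BAQ13, against 356 ± 26.3 with Lys05 and 252 ± 11.6 with vehicle, a difference from Lys05 of 1.70 ± 0.10, adjusted p = 9.7e-08. HMGCS1, the enzyme that opens the pathway to mevalonate, differed by 3.19 ± 0.11, adjusted p = 4.4e-10, although it was not called between Lys05 and vehicle (0.20 ± 0.15, adjusted p = 0.65). FASN and SCD differed by 1.40 ± 0.07, adjusted p = 4.2e-08 and by 0.68 ± 0.06, adjusted p = 9.8e-06. With BAQ12O, 7 of the 20 genes were called higher than with Lys05 and none lower (median 0.43), with FDPS at 0.43 ± 0.08, adjusted p = 0.00027 and FASN at 0.52 ± 0.06, adjusted p = 1.5e-07.

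Of 38 DNA replication genes, 33 had a lower mean with BAQ13 than with Lys05 and 3 were called lower and none higher (median -0.28), where 1.27% of all genes were called lower. With BAQ12O, 1 was called lower than with Lys05 (median -0.16), where 1.03% of all genes were. PCNA had 93.2 ± 5.68 normalised counts with BAQ13, 123 ± 4.09 with BAQ12O and 135 ± 10.6 with Lys05, and differed between BAQ13 and Lys05 by -0.53 ± 0.12, adjusted p = 0.022. MCM10 did not pass the test between BAQ13 and Lys05 (-0.39 ± 0.16, adjusted p = 0.21, unadjusted 95% interval -0.74 to -0.04), which does not show that the compounds act alike. MCM2, a helicase subunit, had a log2 difference of -0.22 between Lys05 and vehicle and was lower with BAQ13 (-0.95 ± 0.20, adjusted p = 0.017) and with BAQ12O (-0.79 ± 0.19, adjusted p = 0.012) than with Lys05.

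Of the lysosomal lists, 4 of 18 genes of membrane proteins and channels, 4 of 15 cathepsins and cystatins, 2 of 17 V-ATPase genes and 2 of 31 hydrolases were called higher with BAQ13 than with Lys05, where 2.52% of all genes were. Of the cathepsins and cystatins, 2 were called lower. In the other lists, 4 of 21 genes of the TFEB family and mTORC1, 3 of 38 core autophagy genes, 2 of 16 receptors and ATG8 genes and 1 of 19 genes of lysosome damage were called higher. NEU1 was higher with BAQ13 than with Lys05 by 1.17 ± 0.14, adjusted p = 0.00016, SLC17A5 by 0.95 ± 0.11, adjusted p = 0.00012, SQSTM1 by 1.02 ± 0.08, adjusted p = 2.0e-06 and LAMP2 by 0.37 ± 0.08, adjusted p = 0.026, whereas the difference for LAMP1 was 0.10 ± 0.11, adjusted p = 0.68 (unadjusted 95% interval -0.14 to 0.35). CTSC was lower with BAQ13, with a difference of -0.67 ± 0.06, adjusted p = 1.5e-05. Among the stress genes, GDF15 had 111 ± 11.3 with BAQ13 and 82.8 ± 10.1 with BAQ12O, against 65.1 ± 6.59 with Lys05, and differed from Lys05 by 0.76 ± 0.14, adjusted p = 0.0059 with BAQ13 and by 0.34 ± 0.14, adjusted p = 0.24 with BAQ12O (unadjusted 95% interval 0.05 to 0.63). UCA1 was higher than with Lys05 after both compounds, by 1.38 ± 0.08, adjusted p = 9.9e-08 and by 0.59 ± 0.08, adjusted p = 1.5e-06. NEAT1 was too, by 0.43 ± 0.06, adjusted p = 0.0012 and by 0.56 ± 0.06, adjusted p = 2.5e-10. YY1AP1 was lower with BAQ12O than with Lys05, with a difference of -0.44 ± 0.11, adjusted p = 0.015. It had 185 ± 39.8 normalised counts with BAQ12O against 169.9 ± 11.8 with vehicle.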

How the data were processed

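RNA-seq of MIA PaCa-2 cells was analysed from per-library gene tables. The authors deposited signal values, made by dividing each library's reads per gene by its own size factor, and the reads were recovered from them (100% whole within 0.02). The submitters' processing notes name STAR, HTSeq and DESeq2, without versions, and hg38. The labels name a 3′ mRNA kit and the study's methods another, stranded kit, so a gene's mean count depends on the kit and gene length and is no measure of its level against other genes. Read totals give the depth, in the report.

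Lys05 and Ctrl libraries (3 and 3) were compared with limma 3.58.1 (R 4.3.3, trend, Benjamini-Hochberg) on log2(value + 1), after filterByExpr of edgeR 4.0.16 (minimum count 10, total 15). Adjusted p-values for Lys05 against vehicle come from this fit over 9874 genes, unless another fit is named, and those between compounds from the same kind of fit on the 6 libraries of each pair. The choice of 6 libraries was made knowing that fits with all 15 call fewer genes: the study compared groups in pairs and BAQ12 replicate 3 stands apart. The members and lists were chosen with earlier results of these data known. Named genes were the 15 largest increases and decreases among called genes whose groups do not overlap, every called list member, in other lists the members with the smallest p and highest mean, and LAMP1, LAMP2, NEU1, BAX, BAK1, BAD, BCL2L11 and BBC3. The others (families, noncoding RNAs, EBP, SQLE, FDFT1, SREBF2, CDT1, RFC3, E2F1, MCM2, SQSTM1, FLCN, PER3 and called genes beyond these) were picked after their values were seen. Results for some genes are not reported here. Copies of mitochondrial genes were found with BLAST 2.17.0, and gene positions are from GENCODE 29. Alternatives were edgeR, DESeq2 1.42.0, other scalings, filters, pseudocounts and library sets. The tests were tried on simulated data (9720 genes, 200 changed).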

Additional observations from a re-analysis of the deposited data

How the results depend on the processing

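Against 45 higher and 43 lower genes, 14 libraries (without BAQ12 replicate 3) gave 16 and 12, all 15 gave 2 and 4, and DESeq2 gave 14 and 18. DESeq2 gave no adjusted p-value for 6509 of the 9874 genes, MCM10, CDC6 and GDF15 among them, so its count covers fewer genes. Leaving out each of the 6 libraries gave 24 to 51 higher and 22 to 45 lower. edgeR gave 50 and 50, and shared 86 of the 88 genes. The fit with the replicate number as a block gave 38 and 37, all 75 among the 88. Same-numbered libraries correlated at -0.027, 0.0067 and -0.050 in their deviations, so the numbers were not taken as pairs. The 13 genes past a 2-fold change became 40 with 14 libraries, 38 with 15, 3 with at least 10 reads in every library, 370 with no filter, 23 with a pseudocount of 0.1, 6 with a pseudocount of 5 and 27 to 37 when leaving out 1 library. The 376 genes between BAQ13 and Lys05 became 796 with 14 libraries, 233 with DESeq2, 176 with the replicate block and 127 to 782 when leaving out 1 library. The 201 between BAQ12O and Lys05 became 65, 70 with DESeq2, 12 with all 15 libraries and 57 to 201. The causes were not tested.

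Directions turned in 10 genes that were not called. BAK1 had a log2 difference of 0.059 by edgeR. Leaving out 1 library gave ranges of -0.14 to 0.24 for BAD, -0.30 to 0.15 for BAK1, -0.048 to 0.010 for LAPTM4A, -0.19 to 0.068 for BAX, -0.039 to 0.054 for LGALS1, -0.12 to 0.028 for HIF1A, -0.032 to 0.034 for LIPA, -0.049 to 0.061 for ATP6V1G1, -0.021 to 0.090 for MCL1 and -0.16 to 0.018 for BCL2L11. Of the values for named genes under an alternative, 2002 kept direction and side of the threshold, 398 lost the call and 22 gained it. At the depth of these libraries, 25.9% of simulated 1.5-fold changes below the median expression were recovered.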
